A study of Mus musculus with 12 samples.

Results

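The BCL-2 family was followed here through 10 of its genes, *Bcl2*, *Bcl2l1*, *Mcl1*, *Bcl2a1b*, *Bcl2a1d*, *Bcl2l11*, *Bid*, *Bad*, *Bmf*, and *Bak1*, which were chosen by symbol from the 32051 genes of the expression table. They were chosen with earlier results of these data known. All 10 passed the minimum mean of 0.1 FPKM (fragments per kilobase of exon, scaled to library size) and were among the 13733 genes tested. RNA-seq was made from Th9 cells, a helper T cell type that secretes IL-9, which were grown from naive splenic CD4+ T cells of C57BL/6J mice, 6 to 8 weeks old by the study's methods. Those methods also name CD45.1+ OT-II mice as a source of naive cells and do not say which mice served for RNA-seq. All 4 groups received anti-CD3, anti-CD28, anti-IL-12, and anti–IFN-γ antibodies, with IL-4 at 10 ng/mL and TGF-β at 1 ng/mL, and RNA was taken on day 4. The groups were DMSO (the vehicle), 10 μM EpA, 5 μM fatostatin, and EpA with fatostatin at the same doses, with 3 replicates each. EpA is a cyclic lipopeptide from fungi that live within *Ganoderma lucidum*, and fatostatin is an inhibitor of the lipid-synthesis regulators called SREBPs. The labels do not say whether replicates came from separate mice or cultures, so the p-values measure the spread between these libraries, which may be technical.

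Members of the family meet at the outer membrane of the mitochondrion and decide whether it is opened. Pro-survival proteins (BCL-2, BCL-XL, MCL-1, and A1) hold the effectors BAX and BAK in check, and the BH3-only proteins, among them BIM, BID, BAD, and BMF, occupy the pro-survival proteins or activate the effectors directly. In T cells, BCL-2 and MCL-1 are the proteins that resting and activated cells depend on, and BIM is the member best known for removing T cells when antigen or cytokine is withdrawn. Much of this control acts on the proteins, and transcripts alone were measured here.

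Between 36019740 and 43656682 reads per library fell on genes, so that depths differed by at most 1.21 times. Replicates correlated at r = 0.985 to 0.988 over tested genes, and no library stood apart. The labelled cell type was present: 5 T cell markers summed to 422 to 430 FPKM with DMSO, 366 to 374 with EpA, 423 to 436 with fatostatin, and 363 to 367 with both, and *Il9* was found in every library at 51.0 to 855 FPKM. Of the 2 CD8 T cell markers, 4 B cell markers, 4 myeloid markers, and 2 NK cell markers, the sums reached at most 10.2, 8.62, 2.57, and 0.0853 FPKM. The RNA was taken from whole cultures, so fewer cells of a type and less RNA per cell cannot be told apart.

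In vehicle-treated Th9 cells, *Mcl1* was the most abundant member per length of transcript, at 94.5 ± 0.444 FPKM (SD, n = 3), higher than 96.5% of tested genes. The level of *Bak1*, an effector, was 37.4 ± 0.780 FPKM, and those of the pro-survival genes *Bcl2l1* (BCL-XL) and *Bcl2* were 31.6 ± 1.40 and 22.3 ± 0.308 FPKM. One A1 copy, *Bcl2a1d*, was at 9.20 ± 0.916 FPKM, close to *Bad* at 8.20 ± 0.841 FPKM, and their libraries overlapped. *Bid* was at 4.92 ± 0.456 FPKM. The 3 lowest members lay near 1 FPKM: *Bcl2l11* (BIM) at 1.20 ± 0.0515, *Bmf* at 1.04 ± 0.0701, and the other A1 copy, *Bcl2a1b*, at 0.888 ± 0.165. Libraries of neighbors in this order did not overlap, apart from *Bcl2a1d* with *Bad* and *Bmf* with *Bcl2a1b*. Over the 12 libraries, *Mcl1* rested on 11488 to 14333 reads, *Bcl2l11* on 286 to 625, and *Bcl2a1b* on 14 to 54.

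**Figure D1:**
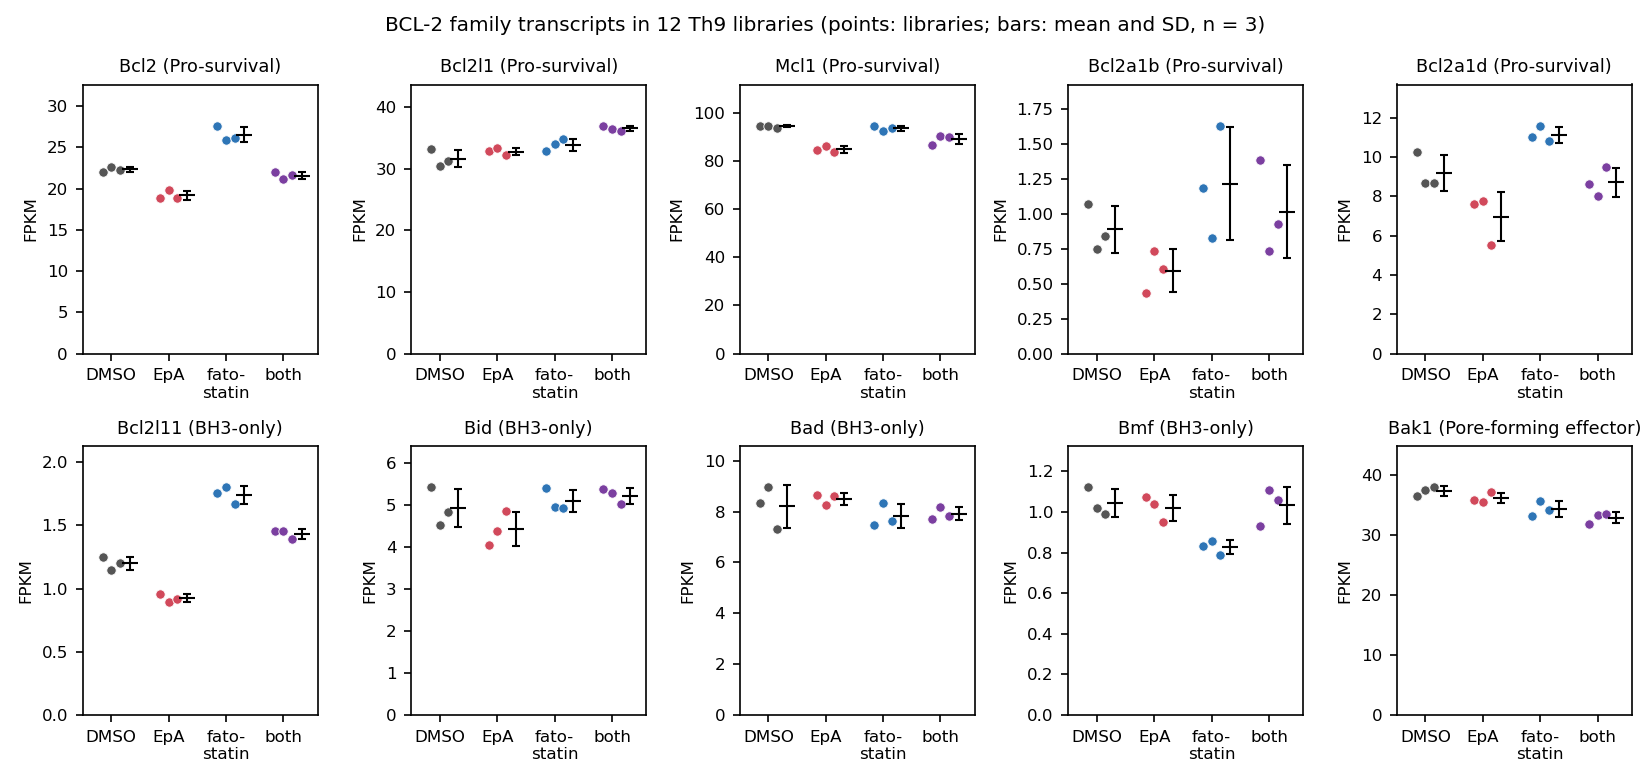
Level of each member in FPKM (y axes, linear, from 0) in the 12 libraries by group (x axes); points are libraries and bars the mean with SD (n = 3). *Bcl2* and *Bcl2l11* lie lowest with EpA and highest with fatostatin, with no overlap of either group with DMSO, whereas *Bad* overlaps between DMSO and both single treatments.

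EpA alone lowered 4 members and raised 0. At an adjusted p below 0.05 (limma, Benjamini-Hochberg over all tested genes), *Bcl2*, *Mcl1*, *Bcl2a1d*, and *Bcl2l11* fell against DMSO, 3 pro-survival genes and 1 BH3-only gene. Over all tested genes, 27.4% were called in this comparison, 14.3% higher and 13.1% lower. Libraries of the groups did not overlap for 5 of the 10 members, all of them below DMSO, against 42.4% of all genes. Whether the shares of the members differ from the background was not tested. The median change of the members was −0.15 on the log2 scale, and that of all genes 0.0023. Called with a change of at least 1.5-fold were 0 members and 3.38% of all genes.

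Fatostatin alone raised *Bcl2* and *Bcl2l11* and lowered *Bak1*. These 3 of 10 members stand beside 14.0% of all genes called, 7.69% higher and 6.31% lower. Groups did not overlap for 5 members, against 31.3% of all genes, and 0 members were called with 1.5-fold, against 1.86%. The median change was 0.074 for the members and 0.0053 for all genes.

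When fatostatin was added to EpA, *Bcl2*, *Bcl2l1*, *Mcl1*, and *Bcl2l11* rose and *Bak1* fell against EpA alone. These 5 calls stand beside 16.0% of all genes, 9.22% higher and 6.79% lower. Groups did not overlap for 8 members, against 33.3% of all genes, and 0 members were called with 1.5-fold, against 1.99%. That 0 became 1, *Bcl2l11*, under TPM scaling, with voom of limma on recovered reads, and without replicate 1 of EpA or replicate 3 of EpA with fatostatin, at log2 changes of 0.63, 0.63, 0.61, and 0.61 against 0.58. The median change was 0.16 for the members and 0.015 for all genes.

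When EpA was added to fatostatin, *Bcl2*, *Mcl1*, *Bcl2a1d*, and *Bcl2l11* fell against fatostatin alone, and *Bcl2l1* and *Bmf* rose. These 6 calls stand beside 29.5% of all genes, 16.2% higher and 13.3% lower. Groups did not overlap for 6 members, against 41.4% of all genes, and 0 members were called with 1.5-fold, against 3.75%. The median change was −0.065 for the members and 0.012 for all genes. The count rested on single libraries: 2 members were called without replicate 1 or without replicate 2 of fatostatin, and 3 without replicate 1 or without replicate 2 of EpA with fatostatin.

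**Figure D2:**
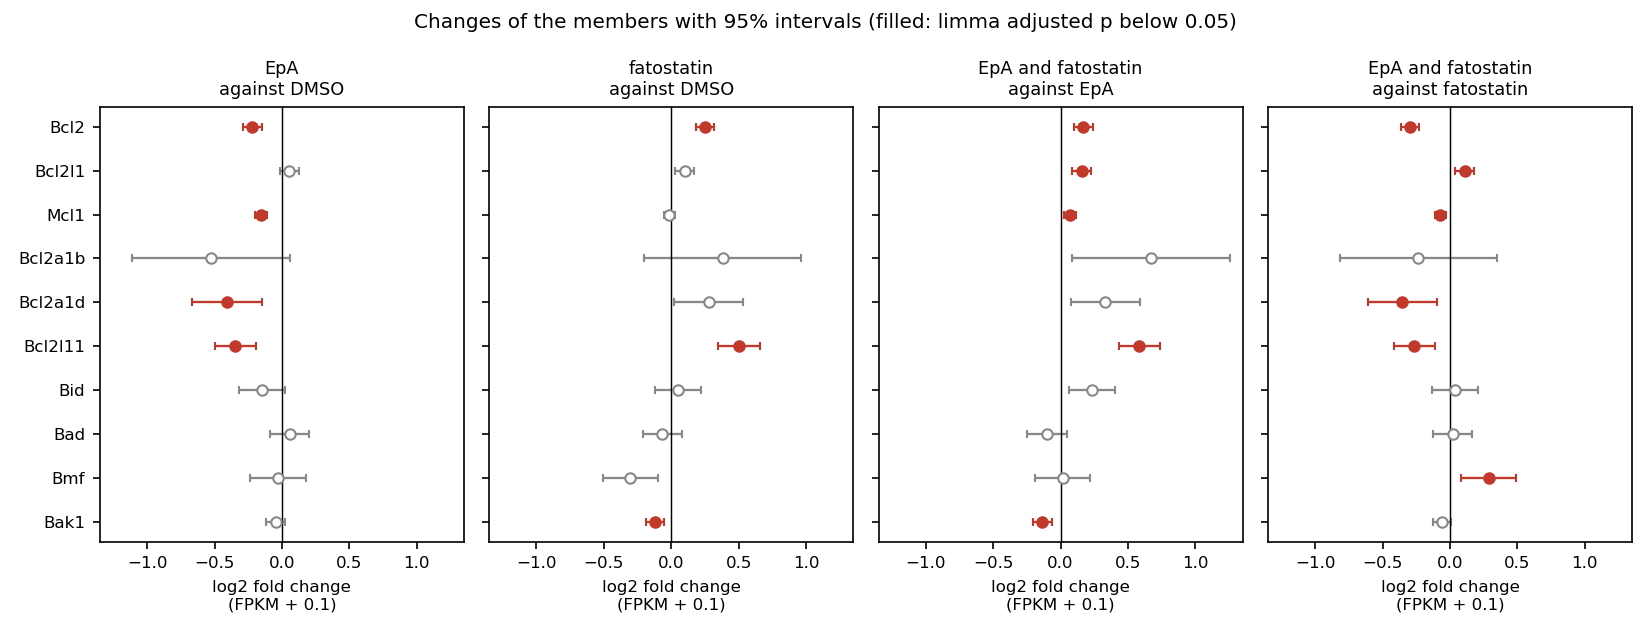
Change of each member (y axis) in 4 comparisons (panels) as log2 fold change of FPKM + 0.1 (x axes); bars are 95% confidence intervals from limma, and filled points have an adjusted p below 0.05. *Bcl2* and *Bcl2l11* are filled in all 4 panels, to the left of 0 where EpA was added and to the right where fatostatin was added, and the widest intervals belong to *Bcl2a1b*.

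*Bcl2*, the founding pro-survival gene (ENSMUSG00000057329, chromosome 1, 106538178 to 106714274, minus strand, GRCm38), was at 22.1, 22.7, and 22.3 FPKM in the DMSO libraries and at 18.9, 19.8, and 18.9 FPKM with EpA. With fatostatin it was at 27.6, 25.9, and 26.1 FPKM, and with both compounds at 22.0, 21.1, and 21.6 FPKM. Libraries with EpA lay below and those with fatostatin above every DMSO library, and libraries with both compounds lay just below DMSO. The log2 change was −0.22 ± 0.031 (SE) for EpA against DMSO (limma adjusted p = 0.000311) and 0.25 ± 0.031 for fatostatin against DMSO (adjusted p = 0.000232). It was 0.17 ± 0.031 when fatostatin was added to EpA (adjusted p = 0.00313) and −0.30 ± 0.031 when EpA was added to fatostatin (adjusted p = 2.83e-05). These are changes of −14.0%, 18.8%, 12.5%, and −18.6% in FPKM + 0.1. An antisense gene, *D630008O14Rik*, covers 6.09% of its exon bases. The sum of 4 B cell markers was 5.97 to 7.88 FPKM with DMSO, 5.19 to 6.21 with EpA, 7.51 to 8.62 with fatostatin, and 6.23 to 6.86 with both. Each treated range overlapped DMSO, though EpA lay below and fatostatin above the range with both compounds, as for *Bcl2* and *Bcl2l11*. Most of that sum was *Cd79b*, whereas *Ms4a1* reached at most 0.0731 FPKM. The sum of 4 myeloid markers, mostly *Cd68*, was 1.252 to 1.383 FPKM with DMSO, 1.21 to 1.72 with EpA, 1.57 to 2.32 with fatostatin, and 1.72 to 2.57 with both. It was thus higher in all libraries with fatostatin than in the DMSO libraries, whereas the EpA libraries overlapped DMSO. The sum of 2 CD8 T cell markers was 8.71 to 9.79 FPKM with DMSO, 7.85 to 8.57 with EpA, 8.55 to 10.2 with fatostatin, and 6.98 to 8.60 with both, so that EpA and both compounds lay below DMSO and fatostatin overlapped it. The part of other cells in the result was not tested.

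*Mcl1*, the short-lived pro-survival protein's gene (ENSMUSG00000038612, chromosome 3, 95658788 to 95663176, plus strand), was at 94.7, 94.8, and 94.0 FPKM with DMSO and at 84.5, 86.5, and 83.7 FPKM with EpA, so that the groups were apart. Fatostatin libraries, at 94.5, 92.7, and 93.6 FPKM, overlapped those with DMSO. With both compounds the values were 86.8, 90.4, and 90.3 FPKM, between EpA and DMSO. *Mcl1* fell by 0.15 ± 0.020 on the log2 scale with EpA (limma adjusted p = 0.000161). The change with fatostatin was −0.014 ± 0.020 (95% interval −0.057 to 0.029, adjusted p = 0.718). The changes of 0.070 ± 0.020 for fatostatin added to EpA (adjusted p = 0.0331) and −0.070 ± 0.020 for EpA added to fatostatin (adjusted p = 0.0193) are changes of 4.98% and −4.76%. The former was called under 14 of 21 alternative settings. It was lost at adjusted p = 0.0957 without replicate 1 of EpA, at 0.117 without replicate 3 of EpA, and at 0.108 and 0.106 without replicates 2 and 3 of EpA with fatostatin. The latter was called under 17, and was lost at adjusted p = 0.0615 without replicate 1 of fatostatin and at 0.0630 without replicate 1 of EpA with fatostatin.

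*Bcl2l1* (ENSMUSG00000007659, chromosome 2, 152780668 to 152831728, minus strand), which encodes BCL-XL, behaved differently from *Bcl2* and *Mcl1* in that it did not fall in any comparison. It was at 33.2, 30.4, and 31.4 FPKM with DMSO, at 32.9, 33.3, and 32.3 with EpA, and at 32.9, 34.0, and 34.8 with fatostatin, and these groups overlapped. With both compounds it was at 37.1, 36.5, and 36.2 FPKM, above every other library. The rise was 0.16 ± 0.032 on the log2 scale against EpA (limma adjusted p = 0.00617) and 0.11 ± 0.032 against fatostatin (adjusted p = 0.0233). The second call was lost without replicate 1 or 2 of fatostatin (adjusted p = 0.0863 and 0.0518) or replicate 1 or 2 of EpA with fatostatin (adjusted p = 0.0695 and 0.0531). Single treatments gave 0.053 ± 0.032 for EpA (adjusted p = 0.251) and 0.10 ± 0.032 for fatostatin (adjusted p = 0.0577), short of the threshold. Without replicate 1 of DMSO, the highest of its group, those adjusted p-values were 0.0491 and 0.0130, both under the threshold. Without replicate 2 of DMSO, the changes were 0.025 for EpA and 0.072 for fatostatin (adjusted p = 0.626 and 0.184). Without replicate 1 of fatostatin, the adjusted p for fatostatin was 0.0449.

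A1 is encoded in the mouse by several near-identical copies on chromosome 9, and 2 of them are members here. The coding sequences of *Bcl2a1b* and *Bcl2a1d* are 519 bases long and differ at 6 of them (98.8% identical), with an identical run of 217 bases. The first 90 coding bases of each are shown because no other stretch of 90 coding bases holds more differing bases. They are read from the GENCODE transcripts on GRCm38.p6, *Bcl2a1b* from chr9:89199360-89199449 on the plus strand and *Bcl2a1d* from chr9:88731630-88731719 on the minus strand, and capitals mark the 2 bases that differ.
Bcl2a1b: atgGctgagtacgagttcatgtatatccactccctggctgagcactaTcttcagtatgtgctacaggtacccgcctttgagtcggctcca
Bcl2a1d: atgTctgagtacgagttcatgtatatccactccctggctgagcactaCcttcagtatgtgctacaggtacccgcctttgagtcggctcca
Reads that lie between such bases fit both copies, and 49.1% of the exon bases of *Bcl2a1b* are also shared with the gene *Gm29094* on the same strand, so the levels of both copies are uncertain.

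*Bcl2a1d* (ENSMUSG00000099974) was at 10.3, 8.68, and 8.66 FPKM with DMSO and at 7.63, 7.74, and 5.53 FPKM with EpA. It was at 10.99, 11.6, and 10.8 FPKM with fatostatin and at 8.64, 7.999, and 9.47 FPKM with both compounds. All libraries with EpA lay below DMSO and all with fatostatin above it. *Bcl2a1d* fell by 0.41 ± 0.12 on the log2 scale with EpA (limma adjusted p = 0.0229), a call that was lost without replicate 1 of DMSO (adjusted p = 0.0889) or replicate 3 of EpA (adjusted p = 0.0513, with a change of −0.25). The change when EpA was added to fatostatin was −0.35 ± 0.12 (adjusted p = 0.0408). That call was lost without any 1 of 7 libraries: replicate 1, 2, or 3 of fatostatin (adjusted p = 0.0795, 0.112, and 0.0712), replicate 1 or 2 of EpA with fatostatin (0.0868 and 0.131), and replicate 2 or 3 of DMSO (0.0504 and 0.0501), the last pair not being in the comparison. The changes with fatostatin did not pass the test, at 0.28 ± 0.12 against DMSO (adjusted p = 0.154) and 0.33 ± 0.12 when added to EpA (adjusted p = 0.0811). Without replicate 3 of EpA, the former had an adjusted p of 0.0319.

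*Bcl2a1b* (ENSMUSG00000089929) was at 1.07, 0.749, and 0.844 FPKM with DMSO, 0.431, 0.737, and 0.607 with EpA, 1.19, 0.829, and 1.63 with fatostatin, and 1.38, 0.736, and 0.926 with both. Only the EpA libraries lay apart from those with DMSO. The change with EpA was −0.53 ± 0.27 (95% interval −1.11 to 0.058, limma adjusted p = 0.176), and that of fatostatin added to EpA was 0.67 ± 0.27 (0.088 to 1.26, adjusted p = 0.116). With a pseudocount of 1 these changes were −0.25 and 0.33, and without replicate 1 of EpA they were −0.35 and 0.49. None of its 4 comparisons passed the test at this depth.

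BIM is the BH3-only protein whose gene, *Bcl2l11* (ENSMUSG00000027381, chromosome 2, 128126038 to 128162547, plus strand), was called in all 4 comparisons. It was at 1.249, 1.146, and 1.206 FPKM with DMSO and at 0.958, 0.894, and 0.918 FPKM with EpA. It was at 1.75, 1.80, and 1.67 FPKM with fatostatin and at 1.46, 1.46, and 1.39 FPKM with both compounds. The 4 groups did not overlap: EpA was lowest, then DMSO, then both compounds, then fatostatin. *Bcl2l11* fell by 0.35 ± 0.070 on the log2 scale with EpA (limma adjusted p = 0.00349) and rose by 0.50 ± 0.070 with fatostatin (adjusted p = 0.000568). Fatostatin added to EpA gave 0.58 ± 0.070 (adjusted p = 0.000174), and the mean FPKM was 1.55 times that with EpA. EpA added to fatostatin gave −0.26 ± 0.070 (adjusted p = 0.0146), which was lost without replicate 2 of fatostatin (adjusted p = 0.0558) or replicate 3 of EpA with fatostatin (adjusted p = 0.0522). With a pseudocount of 1, which shrinks changes of genes at this level, these 4 changes were −0.19, 0.32, 0.34, and −0.17, and all were called. The order of the group means of *Bcl2l11* differed from that of *Bcl2* only in that both compounds lay above DMSO for *Bcl2l11* and below it for *Bcl2*.

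The 250 bases before the start of *Bcl2* and of *Bcl2l11* are given because these members changed in the same direction in all 4 comparisons. They are from RefSeq (GRCm38.p6) on the strand of each gene, *Bcl2* at chr1:106714291-106714540 and *Bcl2l11* at chr2:128125788-128126037, and capitals mark a match to GTAAACA, the core letters bound by FOXO factors.
Bcl2: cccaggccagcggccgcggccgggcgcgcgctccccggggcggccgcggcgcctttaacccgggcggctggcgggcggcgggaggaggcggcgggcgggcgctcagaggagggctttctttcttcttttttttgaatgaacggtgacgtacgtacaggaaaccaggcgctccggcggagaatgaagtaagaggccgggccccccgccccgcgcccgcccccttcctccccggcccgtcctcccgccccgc
Bcl2l11: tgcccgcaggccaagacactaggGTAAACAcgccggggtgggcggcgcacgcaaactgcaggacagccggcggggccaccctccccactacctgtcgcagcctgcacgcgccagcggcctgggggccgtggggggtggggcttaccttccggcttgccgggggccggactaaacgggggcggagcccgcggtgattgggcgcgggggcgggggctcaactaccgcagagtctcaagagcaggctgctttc
Both windows are rich in G and C, at 74.8% for *Bcl2* and 72.0% for *Bcl2l11*, against a median of 52.4% over 32851 promoter windows. The 5 motifs searched, on both strands, were GTAAACA (FOXO), TCACNCCAC (a sterol element), TTCNNNGAA (STAT), CACGTG (E-box), and TGANTCA (AP-1). The *Bcl2l11* window holds GTAAACA at 227 to 221 bases before the start, as do 3.17% of all windows. The windows of *Bcl2a1b* and *Bcl2a1d* each hold 1 TGANTCA, at 164 to 158 and 114 to 108 bases before their starts, as do 6.75% of all windows. None of the 5 was found in the windows of the other 7 members, and TCACNCCAC, TTCNNNGAA, and CACGTG occur in 1.05%, 7.02%, and 6.02% of all windows. A match describes these letters only.

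Of the other BH3-only genes, *Bmf* was called in 1 comparison and *Bid* and *Bad* in 0. *Bid* (ENSMUSG00000004446), whose protein is cleaved by caspase-8 before it acts, was at 5.42, 4.52, and 4.81 FPKM with DMSO, 4.05, 4.37, and 4.86 with EpA, 5.38, 4.95, and 4.91 with fatostatin, and 5.36, 5.26, and 5.00 with both. It did not pass the test in any comparison, though libraries with both compounds lay above those with EpA, with a change of 0.23 ± 0.077 (limma adjusted p = 0.0610). Without replicate 1 of DMSO or replicate 3 of EpA, that adjusted p was 0.0409 and 0.0284, under the threshold. *Bid* shares 17.7% of its exon bases with *Bcl2l13*, at 8.76 FPKM on average, on the opposite strand. *Bad* (ENSMUSG00000024959), whose protein is held inactive by phosphorylation downstream of growth factors, ranged from 7.30 to 8.96 FPKM over the 12 libraries and passed the test in 0 comparisons. Its 95% interval was −0.091 to 0.20 for EpA against DMSO and −0.21 to 0.082 for fatostatin against DMSO. *Gpr137*, at 3.30 FPKM on average on the opposite strand, covers 20.5% of the exon bases of *Bad*.

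*Bmf* (ENSMUSG00000040093), which encodes a BH3-only protein tethered to the cytoskeleton, was at 1.12, 1.02, and 0.989 FPKM with DMSO and 1.07, 1.04, and 0.949 FPKM with EpA, and the groups overlapped. With fatostatin it was at 0.832, 0.860, and 0.790 FPKM, below every other library, and with both compounds at 0.932, 1.11, and 1.06 FPKM. The difference of −0.30 ± 0.093 between fatostatin and DMSO missed the threshold (limma adjusted p = 0.0536), was −0.16 with a pseudocount of 1 (adjusted p = 0.0499), and was under the threshold without replicate 1 of EpA with fatostatin (adjusted p = 0.0454). *Bmf* rose by 0.29 ± 0.093 when EpA was added to fatostatin (adjusted p = 0.0386), a call kept under 11 of 20 alternatives, and by 0.15 with a pseudocount of 1. It was lost without replicate 1, 2, or 3 of fatostatin (adjusted p = 0.0767, 0.0594, and 0.110), replicate 2 or 3 of EpA with fatostatin (0.127 and 0.103), or replicate 2 of EpA (0.0516).

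*Bak1* (ENSMUSG00000057789, chromosome 17, 27019810 to 27029009, minus strand), the effector that sits in the mitochondrial outer membrane, was at 36.5, 37.6, and 38.0 FPKM with DMSO and at 35.9, 35.5, and 37.1 FPKM with EpA. With fatostatin it was at 33.2, 35.7, and 34.1 FPKM, and with both compounds at 31.9, 33.3, and 33.5 FPKM. Fatostatin libraries lay below DMSO, and libraries with both compounds below EpA. *Bak1* fell by 0.12 ± 0.031 on the log2 scale with fatostatin (limma adjusted p = 0.0236) and by 0.14 ± 0.031 when fatostatin was added to EpA (adjusted p = 0.0127). The first call was lost without replicate 2 or 3 of DMSO (adjusted p = 0.0681 and 0.0864) or replicate 1 or 3 of fatostatin (0.0882 and 0.0689). The second was lost without replicate 3 of EpA (0.0543) or replicate 1 of EpA with fatostatin (0.0503). EpA alone gave −0.047 ± 0.031 (adjusted p = 0.309). *Ggnbp1*, at 0.0602 FPKM on average, lies on the opposite strand over 18.2% of its exon bases.

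No member had a different response to EpA with and without fatostatin that passed the test of the difference. That test called 0 members and 6 of all genes (0.0437%, limma, and 0% with 1.5-fold). At an unadjusted level, 2 members and 1083 of all genes had a p below 0.05, and voom of limma on recovered reads called 19 genes in all and 0 members. Across the other settings, 0 to 9 genes were called, with 0 under median-ratio scaling or the replicate block and 0 to 2 with any 1 library left out. The pair was *Mcl1*, with a difference of 0.084 ± 0.028 on the log2 scale (adjusted p = 0.468), and *Bmf*, with 0.32 ± 0.13 (adjusted p = 0.586). For *Bcl2* the difference was −0.079, with a 95% interval of −0.17 to 0.016, and for *Bcl2l11* it was 0.082, with an interval of −0.13 to 0.30. With a pseudocount of 1, the difference was 0.17 for *Bmf* and 0.023 for *Bcl2l11*.

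Because a pro-survival gene and a BH3-only gene moved together, ratios of FPKM were formed in each library, as a description without a test. The ratio of *Bcl2* to *Bcl2l11* was 17.7 to 19.8 with DMSO, 19.7 to 22.2 with EpA, 14.4 to 15.8 with fatostatin, and 14.5 to 15.6 with both compounds. The EpA range overlapped that of DMSO, and both fatostatin ranges lay below it and overlapped each other. For *Mcl1* to *Bcl2l11* the ranges were 75.8 to 82.7, 88.2 to 96.8, 51.4 to 56.2, and 59.6 to 65.0 in the same order of groups, without overlap. For *Bcl2l1* to *Bcl2l11* they were 26.0 to 26.6, 34.3 to 37.3, 18.8 to 20.9, and 25.0 to 26.1, so that libraries with both compounds overlapped DMSO.

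Sums over roles varied less than these pairs. The 5 pro-survival members summed to 157 to 161 FPKM with DMSO, 141 to 148 with EpA, 165 to 167 with fatostatin, and 156 to 159 with both. *Mcl1* made up 59.6% ± 0.796 (SD, n = 3) of that sum with DMSO, 58.8% ± 0.540 with EpA, 56.2% ± 0.235 with fatostatin, and 56.8% ± 1.01 with both. The 4 BH3-only members summed to 14.3 to 16.1, 14.5 to 15.3, 15.0 to 16.0, and 15.3 to 16.0 FPKM in the same order, and all groups overlapped. The pro-survival sum was 10.3 ± 0.553 times the BH3-only sum with DMSO, 9.72 ± 0.501 with EpA, 10.8 ± 0.397 with fatostatin, and 10.1 ± 0.291 with both, with each treated group overlapping DMSO. That overlap held for these 4 BH3-only genes and not when the 4 others listed, *Bbc3*, *Pmaip1*, *Bik*, and *Hrk*, were added after their values had been seen. *Hrk* was at 0 FPKM in every group, and the pro-survival sum was kept at its 5 members. The 8 genes summed to 24.0 to 25.7 FPKM with DMSO, 26.1 to 26.3 with EpA, 31.8 to 32.5 with fatostatin, and 33.6 to 34.5 with both. The pro-survival sum was then 6.27 to 6.55 times theirs with DMSO, 5.41 to 5.64 with EpA, 5.15 to 5.19 with fatostatin, and 4.56 to 4.64 with both, without overlap.

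**Figure D3:**
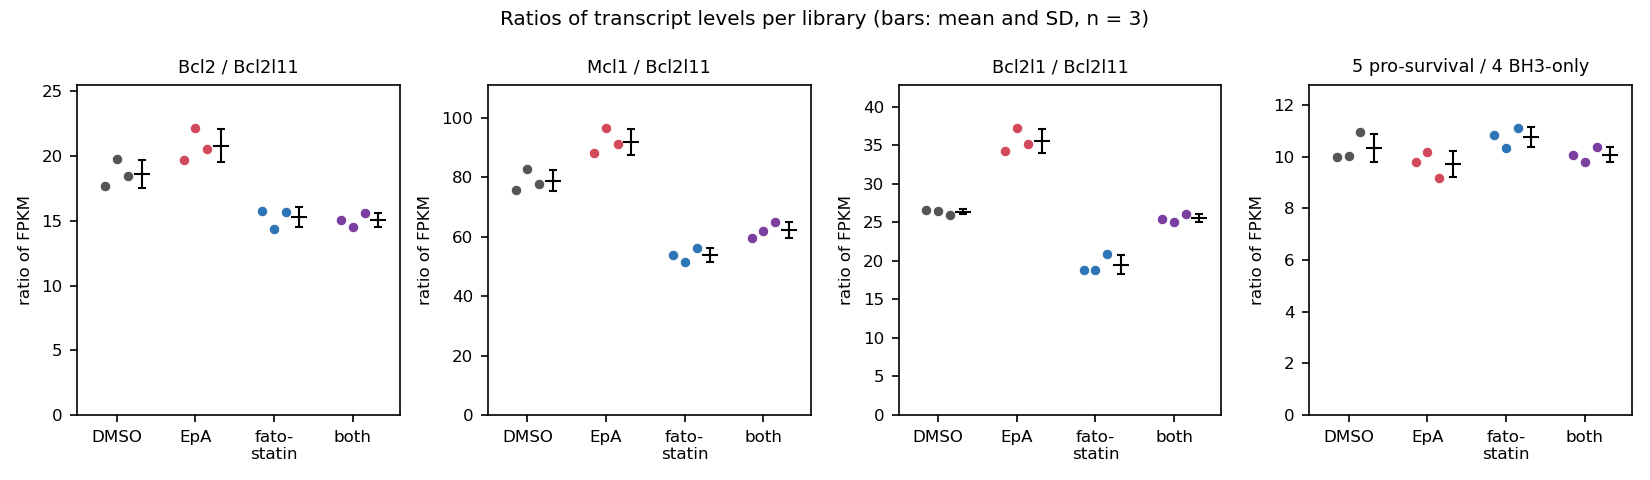
Ratios of FPKM (y axes, linear, from 0) in each of the 12 libraries by group (x axes); points are libraries and bars the mean with SD (n = 3). The 3 ratios to *Bcl2l11* are higher with EpA and lower with fatostatin than with DMSO, with ranges of 19.7 to 22.2 and 14.4 to 15.8 for *Bcl2* (the EpA range overlapping that of DMSO), whereas the ratio of the 5 pro-survival to the 4 BH3-only members overlaps between DMSO and each treated group.

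Over the 12 libraries, *Bcl2* correlated with *Bcl2l11* at r = 0.88, with *Bcl2a1d* at 0.86, and with *Mcl1* at 0.77 (log2 scale). *Bcl2l1* and *Bak1* correlated at −0.86. These values describe libraries that share their groups, and the parts within and between groups were not separated. The 3 genes most like *Bcl2*, among 10298 whose mean reached 1 FPKM, were *Ptprc* (r = 0.986), *Sptbn1* (0.983), and *Mlec* (0.982). Those most like *Bcl2l11* were *Klhl24* (0.985), *Canx* (0.984), and *Niban1* (0.981). For *Mcl1* they were *Skic2* (0.962), *Grcc10* (0.960), and *Card6* (0.948), and for *Bcl2l1*, *Taf4b* (0.971), *Tgif1* (0.961), and *Cacnb3* (0.957). *Bak1* was most like *Plk1* (0.958), *Mta3* (0.958), and *Tubb4b* (0.945). *Bcl2a1d* was most like *Ewsr1* (0.933), *Rnf123* (0.921), and *Lrrc1* (0.920), and *Bmf* was most like *Ptpmt1* (0.904), *Uqcr11* (0.888), and *L3mbtl2* (0.886).

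Of 17 other genes of the BCL-2 family, 14 were tested. EpA raised 5 and lowered 0, beside 14.3% and 13.1% of all genes, and fatostatin raised 5 and lowered 1, beside 7.69% and 6.31%. The medians of the list were 0.24 and 0.037 on the log2 scale, beside 0.0023 and 0.0053 for all genes. *Bbc3*, which encodes the BH3-only protein PUMA, was at 2.33 to 2.82 FPKM with DMSO, 2.37 to 3.57 with EpA, 5.04 to 5.53 with fatostatin, and 4.81 to 5.45 with both. It rose by 1.00 ± 0.12 with fatostatin (limma adjusted p = 0.000214), and its change with EpA was 0.19 ± 0.12 (adjusted p = 0.287). *Pmaip1*, which encodes the BH3-only protein NOXA, was at 5.27 to 5.64 FPKM with DMSO, 6.63 to 7.06 with EpA, 9.39 to 10.8 with fatostatin, and 11.96 to 12.7 with both. It rose by 0.30 ± 0.051 with EpA (adjusted p = 0.00104) and by 0.87 ± 0.051 with fatostatin (adjusted p = 5.93e-07). *Bax*, the other main effector, rose by 0.24 ± 0.054 with EpA (adjusted p = 0.00623) and by 0.34 ± 0.054 with fatostatin (adjusted p = 0.00146), from 32.2 ± 0.606 FPKM with DMSO to 38.2 ± 2.92 and 40.8 ± 1.78. *Bnip3* and *Bnip3l*, relatives that take part in the removal of mitochondria, rose with EpA by 0.36 ± 0.025 and 0.25 ± 0.017, and with fatostatin *Bnip3* fell by 0.16 ± 0.025 and *Bnip3l* rose by 0.16 ± 0.017 (all adjusted p at most 0.00131). *Bcl2l15* rose by 0.53 ± 0.15 with fatostatin (adjusted p = 0.0385).

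All 16 genes of the apoptosome, the caspases, and their inhibitors were tested, and EpA raised 6 and lowered 2, whereas fatostatin raised 1 and lowered 1. Of all genes, EpA changed 27.4% and fatostatin 14.0%. The list medians were 0.079 and 0.033, beside 0.0023 and 0.0053 for all genes. *Apaf1*, the scaffold of the apoptosome, was the 1 that rose with fatostatin, from 9.91 ± 0.131 to 13.7 ± 0.382 FPKM, by 0.47 ± 0.035 on the log2 scale (limma adjusted p = 6.12e-06). *Birc5*, which encodes survivin and serves cell division, fell by 0.17 ± 0.019 with fatostatin (adjusted p = 0.000121). With EpA, *Casp6*, an executioner caspase, rose by 0.27 ± 0.051 (adjusted p = 0.00247), *Htra2*, a mitochondrial protease, by 0.24 ± 0.038 (adjusted p = 0.000601), and *Cycs*, cytochrome c, by 0.19 ± 0.031 (adjusted p = 0.00106). *Casp2* fell by 0.24 ± 0.032 with EpA (adjusted p = 0.000233).

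Of 18 regulators of the family, 17 were tested. EpA raised 5 and lowered 3 (27.4% of all genes were called), fatostatin raised 3 and lowered 2 (14.0%), and the list medians were 0.061 and 0.045, against 0.0023 and 0.0053 over all genes. *Il7r*, the receptor chain for IL-7, a cytokine known to maintain BCL-2 in T cells, was at 14.5 to 15.7 FPKM with DMSO and 10.4 to 10.9 with EpA, and at 15.2 to 16.2 with fatostatin and 10.5 to 10.8 with both. It fell by 0.51 ± 0.036 with EpA (limma adjusted p = 2.19e-06), and its change with fatostatin was 0.033 ± 0.036 (adjusted p = 0.625). *Il2ra*, the IL-2 receptor chain CD25, rose by 0.34 ± 0.021 with EpA (adjusted p = 6.73e-07) and by 0.076 ± 0.021 with fatostatin (adjusted p = 0.0306). *Foxo3*, a transcription factor known to drive *Bcl2l11*, rose by 0.33 ± 0.041 with EpA (adjusted p = 0.000127) and by 0.65 ± 0.041 with fatostatin (adjusted p = 1.22e-06). *Bcl2l11* fell with EpA and rose with fatostatin, and a link to *Foxo3* was not tested. *Foxo1* fell by 0.18 ± 0.022 with fatostatin (adjusted p = 0.000210), and its change with EpA was −0.0082 ± 0.022 (adjusted p = 0.831). *Pim2*, a survival kinase that phosphorylates BAD, fell by 0.29 ± 0.031 with EpA (adjusted p = 4.24e-05) and by 0.27 ± 0.031 with fatostatin (adjusted p = 0.000129). *Stat5a*, which relays IL-2 and IL-7 signals, rose by 0.18 ± 0.026 with fatostatin (adjusted p = 0.000692).

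**Figure D4:**
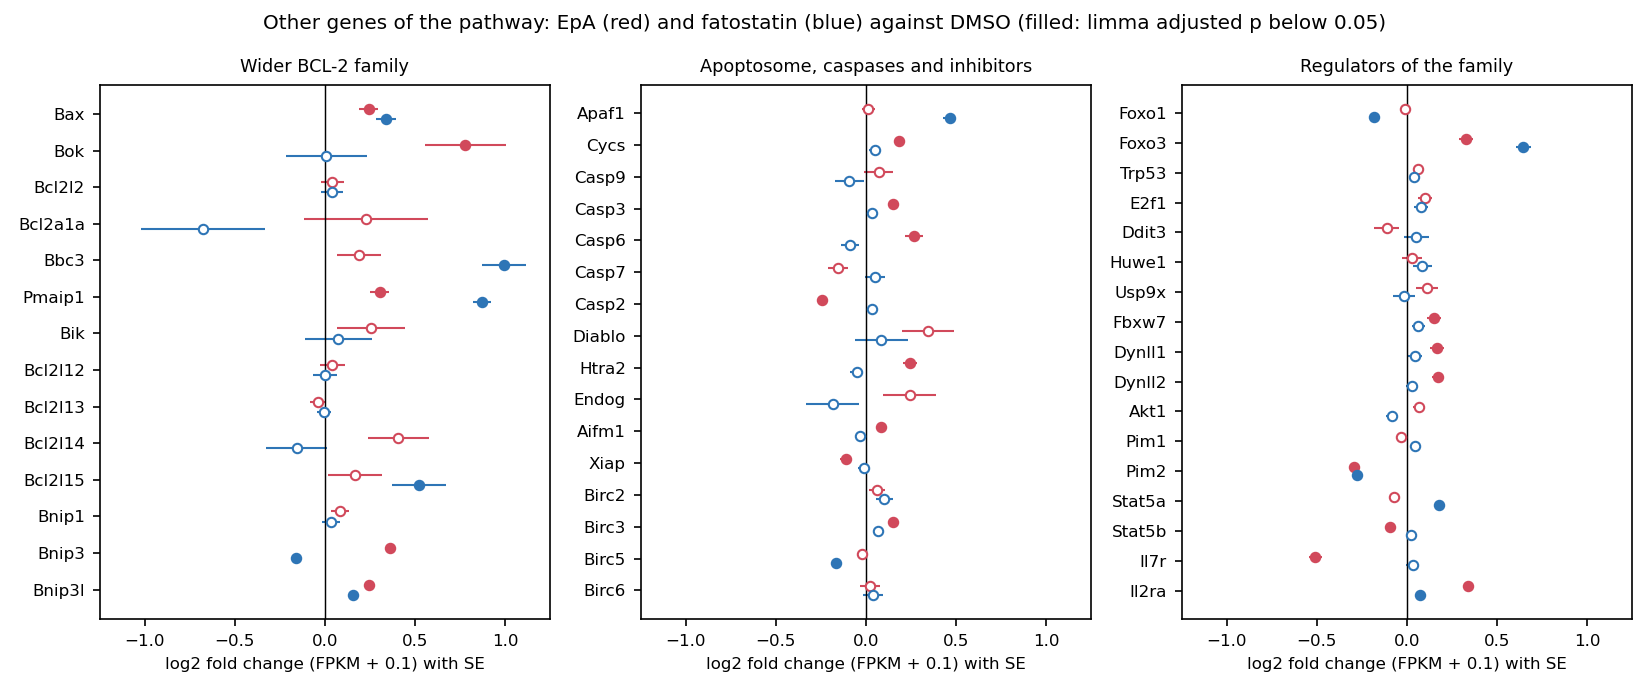
Change of the tested genes of 3 lists (panels) with EpA (red) and fatostatin (blue), each against DMSO, as log2 fold change of FPKM + 0.1 (x axes); bars are standard errors, and filled points have an adjusted p below 0.05. Both treatments share the DMSO libraries; *Bbc3*, *Pmaip1*, *Foxo3*, and *Apaf1* lie farther to the right with fatostatin, and *Il7r* is filled and to the left with EpA.

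The same lists were counted in the other comparisons. Of the 14 tested genes of the wider family, fatostatin added to EpA raised 5 and lowered 1, of the 16 apoptosome and caspase genes it raised 3 and lowered 2, and of the 17 regulators it raised 4 and lowered 2, beside 9.22% and 6.79% of all genes. EpA added to fatostatin raised 6 and lowered 0 of the 14, raised 5 and lowered 1 of the 16, and raised 6 and lowered 3 of the 17, beside 16.2% and 13.3% of all genes. With both compounds, *Pmaip1* was above fatostatin alone by 0.27 ± 0.051 (limma adjusted p = 0.00182), and *Bbc3* differed from it by −0.029 ± 0.12 (adjusted p = 0.892). In the test of the difference, 0 genes of the 3 lists were called.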

How the data were processed

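RNA-seq was made from Th9 cells in 4 groups of 3 libraries. Per the labels and the study's methods, the authors deposited FPKM per gene and library, made from featureCounts counts of HISAT2 alignments (GRCm38) after trimming by Trim Galore. The annotation release and strand use are not given in the sources used here, so reads of overlapping genes on opposite strands cannot be told apart.

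The table held 32352 lines for 32051 genes, and repeated lines were dropped. With GENCODE exon lengths, 98.4% to 98.6% of values came out as whole reads (tolerance 0.05), which gave the depth. Values were tested as log2(FPKM + 0.1) in R 4.3.3 with limma 3.58.1, for genes averaging 0.1 FPKM or more, as 1 fit with a mean per group and an intensity trend. Changes are on that scale, which understates changes of low genes. p-values are two-sided and adjusted by Benjamini-Hochberg over 13733 genes. An exact permutation test of 3 against 3 cannot go below 0.1 and was not used. Alternatives changed the pseudocount, the minimum, the scaling, the groups fitted, the empirical Bayes step, the replicate block, the test (voom on recovered reads), and each library. The code was tested on simulated data.

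Members were named by symbol. The members, lists, motifs, and the naming rule (called list genes averaging 1 FPKM or more, up to 6 per list, and the 3 genes most like each called member) were chosen with earlier results of these data known. Promoter windows came from RefSeq (GRCm38.p6) and matched 10 of 10 members. Figures were drawn with matplotlib 3.10.9 in Python 3.11.15.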

Additional observations from a re-analysis of the deposited data

How the results depend on the processing

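Of the 18 calls of members in the 4 comparisons, 9 held under all 21 alternatives: *Bcl2* in each comparison, *Bcl2l11* in all but EpA added to fatostatin, *Mcl1* for EpA against DMSO, and *Bcl2l1* for fatostatin added to EpA. With each of the 12 libraries left out in turn, members called ranged from 3 to 4 for EpA, 2 to 4 for fatostatin, 4 to 6 for fatostatin added to EpA, 2 to 6 for EpA added to fatostatin, and 0 for the difference. The replicate numbers did not pair the libraries: same-numbered pairs correlated at −0.088 to 0.11, and 1 of 18 was over 0.1. With the replicate block, 4, 3, 5, 5, and 0 members were called in these 5 contrasts, and the call of *Bmf* was lost (adjusted p = 0.0548). Other settings changed further calls. Adjusted p-values that passed 0.05 in this way were, for EpA against DMSO, 0.0735 for *Bcl2a1d* with the compared groups alone. For fatostatin against DMSO, *Bak1* had 0.0556 without the intensity trend and 0.0586 with the compared groups alone. For fatostatin added to EpA, *Mcl1* had 0.109 under median-ratio scaling, 0.0969 without the trend, and 0.110 with the compared groups alone. For EpA added to fatostatin, *Mcl1* had 0.0625 without the trend and 0.0675 with the compared groups alone, *Bcl2a1d* had 0.0706 with no minimum and 0.0670 without the trend, and *Bmf* had 0.0808 with no minimum and 0.0969 with the compared groups alone. Newly under 0.05 with fatostatin were *Bcl2l1* (0.0474 with a minimum of 1 FPKM, 0.0390 under TPM scaling, 0.0243 with voom), *Bcl2a1d* (0.0496 with the compared groups alone), and *Bmf* (0.0499 with a pseudocount of 1, 0.0484 under median-ratio scaling, 0.0220 without the trend), and with fatostatin added to EpA *Bid* (0.0461 with a minimum of 1 FPKM, 0.0298 with voom). A minimum of 1 FPKM left *Bmf* and *Bcl2a1b* untested.

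Signs turned only in comparisons where the member was not called. With libraries left out, log2 changes ran from −0.0241 to 0.122 for *Bad* and from −0.0645 to 0.0190 for *Bmf* with EpA, from −0.00866 to 0.119 for *Bid* and from −0.145 to 0.000841 for *Bad* with fatostatin, from −0.0337 to 0.0801 for *Bmf* with fatostatin added to EpA, and from −0.0122 to 0.0667 for *Bad* with EpA added to fatostatin. In the difference they ran from −0.102 to 0.136 for *Bcl2a1d*, from −0.103 to 0.0433 for *Bad*, and from −0.0384 to 0.0154 for *Bak1*. Median-ratio scaling turned *Bmf* with fatostatin added to EpA to −0.00262. Adding 4 BH3-only genes, an alternative chosen after seeing the data, moved the mean ratio of the pro-survival to the BH3-only sum from 10.3 to 6.43 with DMSO, 9.72 to 5.52 with EpA, 10.8 to 5.17 with fatostatin, and 10.1 to 4.595 with both compounds. The cause of the other changes was not tested.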
